A study of Mus musculus with 6 samples.

Results

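Respiratory complex I (NADH:ubiquinone oxidoreductase) genes were compared in the inguinal white fat of Naa10-knockout (Naa10-KO) and wild-type (WT) mice. The members are all genes whose symbol begins with Nduf in the annotation of the Affymetrix whole-genome mouse expression array used, counting only probe sets assigned to 1 gene. They numbered 44 of 18193 genes measured. Of these, 36 carry subunit symbols (Ndufa, Ndufb, Ndufc, Ndufs and Ndufv) and 8 carry assembly factor symbols (Ndufaf). The 36, called subunits here, include Ndufa4, now placed in cytochrome oxidase, and its paralogue Ndufa4l2. All animals were male and ate high-fat chow, 60% of its calories from fat, for 15 weeks from an age of 6 weeks. They were then kept at 4 °C for 4 h, so the WT animals carried the same diet and cold exposure. There were 3 Naa10-KO and 3 WT mice with 1 array each. Naa10 is an enzyme that acetylates the N termini of proteins. The labels name neither the allele nor the tissue of the knockout, and Naa10 itself was not analysed here, so the genotype was not checked on its transcript. Ndufs6 and Ndufa11 are not among the members because no probe set of theirs alone was analysed here.

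Complex I is the largest enzyme of the mitochondrial respiratory chain. It takes electrons from NADH through a flavin and a chain of iron-sulfur clusters to ubiquinone and pumps protons across the inner membrane. A small core, conserved from bacteria, does the chemistry and the pumping. Its hydrophobic membrane subunits are encoded by mitochondrial DNA, and the other core subunits and all accessory subunits by nuclear genes. Accessory subunits surround and stabilise the core, and assembly factors build and modify the modules but are not part of the finished enzyme. In brown and beige fat, complex I feeds the proton gradient that uncoupled respiration turns into heat.

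Values are log2 signals scaled by the authors to a common level per array, and differences are Naa10-KO minus WT on that scale. White adipocyte markers checked the tissue: 7 were measured, with list means of 14.30 to 14.54 on Naa10-KO arrays and 14.31 to 14.79 on WT arrays. Skeletal muscle list means did not overlap between the genotypes. All 17 markers had a higher mean in Naa10-KO, with list means of 11.28 to 11.59 on Naa10-KO arrays and 5.36, 5.87 and 8.57 on WT replicates 1 to 3. Only Pvalb, the calcium buffer parvalbumin, passed limma among them (log2 difference 3.92, Benjamini-Hochberg adjusted p = 0.0409). The 8 brown and beige markers had list means of 8.75 to 9.41 on Naa10-KO arrays and 7.39 to 7.90 on WT arrays, with none past limma. Of these 8, 6 had a higher mean in Naa10-KO, with the largest log2 difference in Ucp1 (6.17). The 2 with a lower mean were Dio2 (-0.97) and Prdm16 (-0.12). Markers of both lists fell below the median of all probe set values (5.86) on some arrays. Examples were Myh4 at 0.99 on WT replicate 2 and Ucp1 at 2.60 on WT replicate 3. The part of either list in the complex I values was not tested. On Naa10-KO replicate 1 the Gapdh control probe sets differed by 0.55 between the 3' and 5' ends. The other 5 arrays gave -0.27 to 0.01. In tissue RNA, fewer cells of a type and less RNA per cell cannot be told apart.

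Differences of complex I transcripts between the genotypes were small. No member passed limma at a Benjamini-Hochberg adjusted p of 0.05, with adjusted p-values from 0.503 to 0.987. Of all genes 0.115% passed, 0.0879% higher and 0.0275% lower in Naa10-KO. At an unadjusted p under 0.05 there were 5 members (11.4%), against 9.2% of all genes, a share close to the background. Of these, 3 were higher in Naa10-KO, against 4.85% of all genes, and 2 lower, against 4.35%. The median difference was 0.09 for the 36 subunits and 0.14 for the 8 assembly factors, or 1.06-fold and 1.10-fold, beside 0.01 for all genes. The quartiles of the subunit differences were -0.07 and 0.17.

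For these genes the arrays of a genotype also lay close together. The standard deviation within a genotype had a median of 0.10 over the members, against 0.22 over the 11359 genes with a mean at or above the median of all probe set values (5.86). For 30 of the 44 members the 95% interval of the difference in limma stayed within 1.5-fold in both directions. The same held for 17.6% of all genes and for 28.1% of those at or above that median. Most members were much brighter than that median. In WT, the 34 subunits at or above it averaged 13.44 and the 8 assembly factors 10.08. Genes of like signal were not compared, so the part of signal strength in the narrow spread was not tested. The widest intervals belonged to Ndufa4l2, Ndufb4 and Ndufb1, and Ndufa4l2 and Ndufb4 had the lowest signals of the members. The plot of differences with their intervals shows 1 row for each member.

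**Figure D1:**
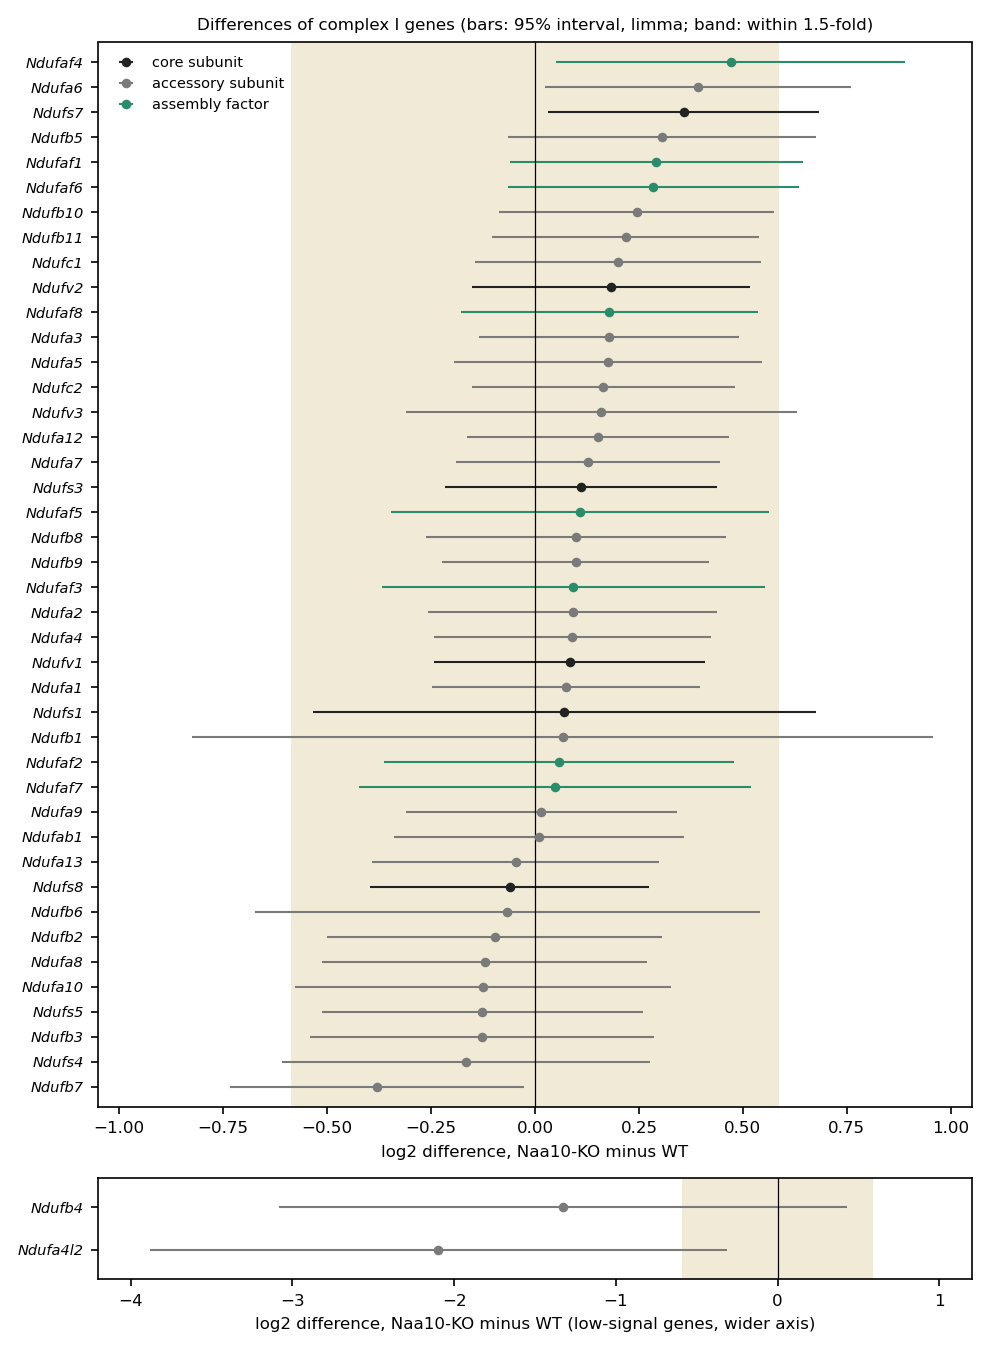
Log2 difference (Naa10-KO minus WT) of each member in limma, with its 95% interval as a bar and a band marking changes within 1.5-fold. The upper panel holds the 42 members with signal above the median of all probe sets on every array, and the lower panel, on a wider axis, Ndufb4 and Ndufa4l2. Differences in the upper panel run from -0.38 for Ndufb7 to 0.47 for Ndufaf4.

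Most members leaned the same way by small amounts. The Naa10-KO mean exceeded the WT mean in 32 of 44 members, namely 24 of 36 subunits and 8 of 8 assembly factors. The share was 51.4% over all genes and 53.2% over those at or above the median signal. Over the 15 alternatives described below, the count of 32 members ranged from 26 to 34. Without WT replicate 3, it comprised 20 of 36 subunits and 6 of 8 assembly factors. The 8 assembly factors became 5 with array weights, 6 without Naa10-KO replicate 1 or without WT replicate 3, and 7 without Naa10-KO replicate 3. With quantile normalization the higher means were 20 of 36 subunits and 8 of 8 assembly factors. The mean difference of the subunits was -0.03, opposite in sign to their median, and became 0.07 over the 34 subunits left when the low-signal genes Ndufa4l2 and Ndufb4 were set aside. For 14 members (31.8%) the lowest Naa10-KO array exceeded the highest WT array, against 10.0% of all genes and 13.0% of those at or above the median signal. For 2 members it was the reverse, against 8.14% and 9.76%, and in either direction 18.1% of all genes did not overlap. The count of 14 rested in part on the scaling. With each array centred on its median, 7 of the 44 members did not overlap upward, against 7.27% of all genes. All 7 were among the 14. These 7 were Ndufaf4, Ndufaf1, Ndufaf6, Ndufa6, Ndufs7, Ndufb5 and Ndufb10.

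Across arrays, WT spread more widely than Naa10-KO in the mean of the 34 subunits without Ndufa4l2 and Ndufb4 (SD 0.07 against 0.02). Over all 36 subunits the order was reversed, with an SD of 0.03 in WT and 0.06 in Naa10-KO. The mean of the 34 subunits was 13.52, 13.49 and 13.52 on Naa10-KO replicates 1 to 3, against 13.52, 13.42 and 13.38 on WT replicates 1 to 3. WT replicate 1 thus lay at the level of the Naa10-KO arrays, and the other two WT arrays lay lower. WT replicate 3, the WT array with the most muscle signal, held the lowest value of 14 of the 36 subunits and of 5 of the 8 assembly factors. WT replicate 2 held the lowest value of 11 subunits and 2 assembly factors, and Naa10-KO replicate 1 that of 6 subunits. The highest value fell on WT replicate 1 for 10 subunits, on Naa10-KO replicate 1 for 10 and on Naa10-KO replicate 3 for 9. A relation to muscle signal was not tested. Assembly factors averaged 10.35, 10.15 and 10.30 on Naa10-KO replicates 1 to 3, against 10.16, 10.09 and 9.99 on WT replicates 1 to 3. Their groups overlapped narrowly, at Naa10-KO replicate 2 and WT replicate 1.

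**Figure D2:**
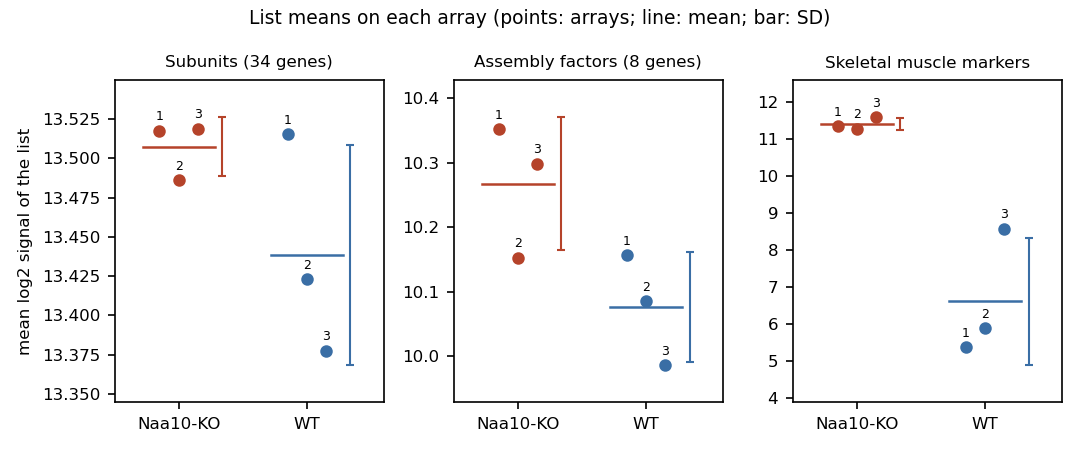
Mean log2 signal on each array of the 34 subunits above the median of all probe sets, the 8 assembly factors and 17 skeletal muscle markers, with Naa10-KO left of WT, numbers giving the replicate, lines the group mean and bars the SD over 3 arrays. The vertical axes differ: the complex I panels span under 1 log2 unit, the muscle panel several units. Complex I means overlap between genotypes, while muscle means do not.

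Set against each other, assembly factors had the larger median difference, by 0.06 on the log2 scale. On single arrays the mean of the assembly factors minus that of all 36 subunits was -2.56, -2.80 and -2.73 in Naa10-KO replicates 1 to 3, against -2.87, -2.90 and -2.98 in WT replicates 1 to 3. That difference did not overlap between genotypes, with means of -2.69 ± 0.12 in Naa10-KO and -2.92 ± 0.06 in WT (SD, n = 3 each). Against the 34 subunits without Ndufa4l2 and Ndufb4 it was -3.17, -3.33 and -3.22 in Naa10-KO replicates 1 to 3, against -3.36, -3.34 and -3.39 in WT replicates 1 to 3. Naa10-KO replicate 2 and WT replicate 2 then nearly met. Both are given as descriptions with no test.

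**Figure D3:**
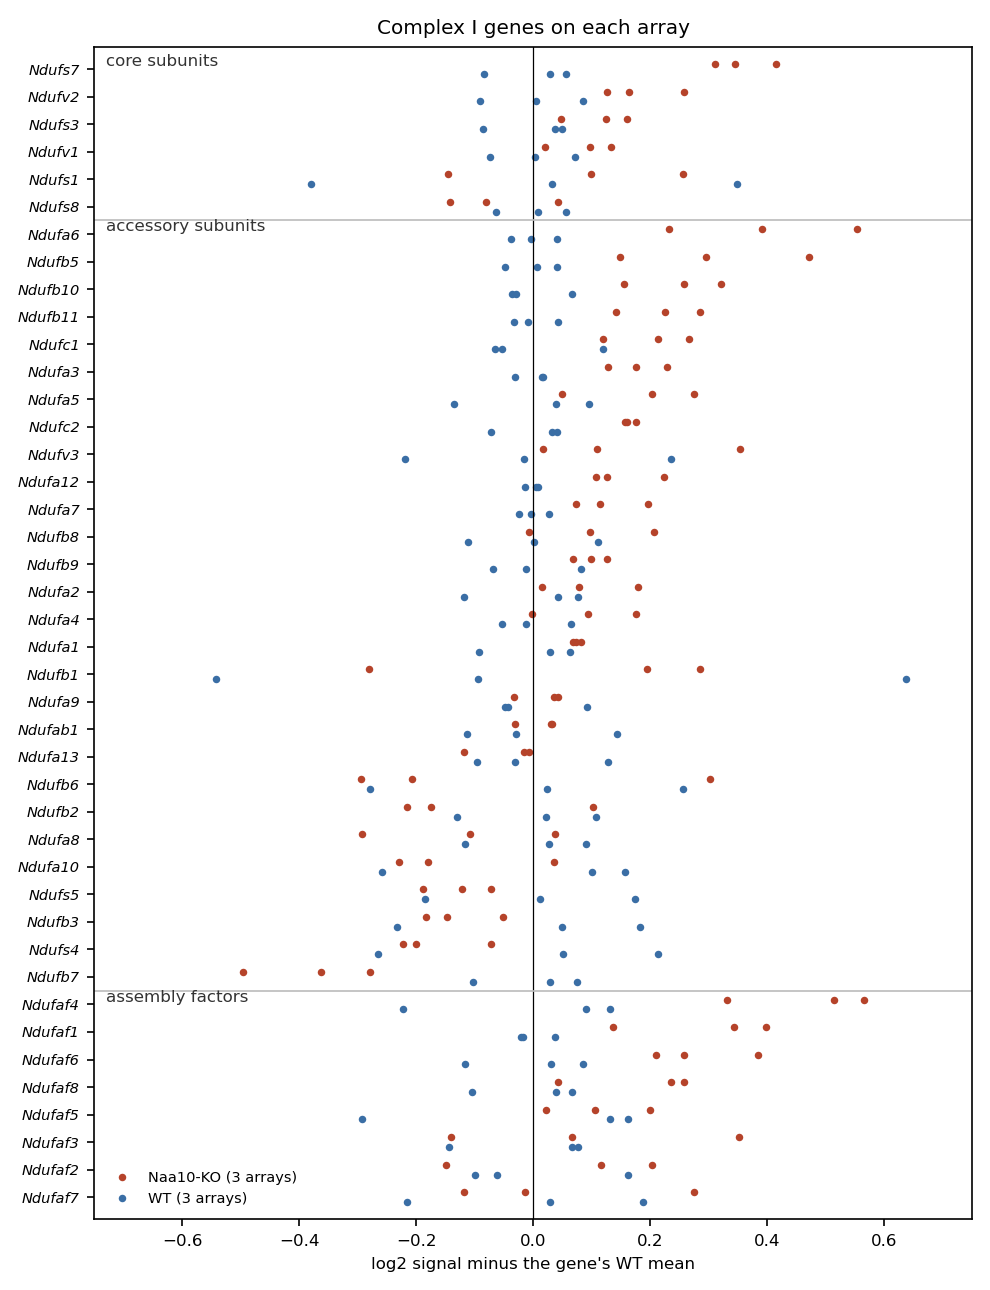
Log2 signal of each member on each of 6 arrays, minus the mean of its 3 WT arrays, for the 42 members above the median of all probe sets on every array, grouped as core subunits, accessory subunits and assembly factors. Each point is 1 array, with Naa10-KO above WT in each row. Points of Ndufs7, Ndufa6 and Ndufaf4 stand clear to the right in Naa10-KO and those of Ndufb7 to the left.

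Of the nuclear core subunits, 6 were measured, and 5 had a higher mean in Naa10-KO, against 51.4% of all genes. Ndufs7 holds the last iron-sulfur cluster before ubiquinone. It was at 13.46, 13.43 and 13.53 on Naa10-KO replicates 1 to 3, against 13.03, 13.14 and 13.17 on WT replicates 1 to 3. The lowest Naa10-KO array of Ndufs7 lay above the highest WT array, and the log2 difference was 0.36 (SE 0.13, 95% interval 0.03 to 0.68, 1.28-fold), which did not pass limma (adjusted p = 0.530). A second Ndufs7 probe set differed by 0.31 and did not overlap either.

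Ndufv2, an iron-sulfur subunit of the NADH-oxidising module, was at 13.72, 13.59 and 13.63 on Naa10-KO arrays, against 13.55, 13.47 and 13.37 on WT arrays. Its groups did not overlap, with a difference of 0.18 (SE 0.13, limma adjusted p = 0.691), and its 2 other probe sets differed by 0.19 and 0.20. The neighbouring subunit Ndufv1, which binds NADH and the flavin, overlapped between genotypes, at 13.40, 13.44 and 13.32 in Naa10-KO and 13.31, 13.23 and 13.38 in WT.

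Ndufs1, the largest core subunit and a carrier of several iron-sulfur clusters, was at 12.47, 12.31 and 12.07 on Naa10-KO arrays, against 12.24, 12.56 and 11.83 on WT arrays. WT arrays of Ndufs1 spread across the whole range of the Naa10-KO arrays, and its difference of 0.07 turned to -0.02 without Naa10-KO replicate 1 and to -0.12 without WT replicate 3. Ndufs3, a core subunit of the ubiquinone-reducing arm, was at 13.08, 13.11 and 13.00 on Naa10-KO arrays, against 12.99, 13.00 and 12.87 on WT arrays, and its groups overlapped at a difference of 0.11. Ndufs8, an iron-sulfur subunit next to Ndufs7, had the only lower mean of the core, at 13.08, 13.14 and 13.27 in Naa10-KO and 13.28, 13.23 and 13.16 in WT. Its difference of -0.06 lay well within the spread of the arrays, and its 5 other probe sets differed by -0.21 to 0.09.

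Accessory subunits gave the largest subunit differences in both directions. Ndufa6, a small accessory subunit of the family of LYR-motif proteins, was at 13.62, 13.46 and 13.30 on Naa10-KO arrays, against 13.11, 13.07 and 13.03 on WT arrays. The WT arrays of Ndufa6 lay close together and all below the Naa10-KO arrays, at a log2 difference of 0.39 (SE 0.15, 95% interval 0.02 to 0.76, 1.31-fold, limma adjusted p = 0.532). Ndufb5, a subunit of the membrane arm, was at 13.70, 13.55 and 13.88 on Naa10-KO arrays, against 13.41, 13.45 and 13.36 on WT arrays. Its difference was 0.30 (SE 0.15, limma adjusted p = 0.592), and a second probe set gave 0.29, both without overlap.

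Ndufb10 and Ndufb11 are further membrane-arm subunits, the second encoded on the X chromosome. Ndufb10 was at 13.06, 12.96 and 13.13 on Naa10-KO arrays, against 12.87, 12.78 and 12.77 on WT arrays, a difference of 0.24 (SE 0.13, limma adjusted p = 0.610). Ndufb11 was at 14.61, 14.55 and 14.46 on Naa10-KO arrays, against 14.36, 14.31 and 14.29 on WT arrays, a difference of 0.22 (SE 0.13, limma adjusted p = 0.638). Neither gene overlapped between genotypes, although Ndufb11 did once arrays were centred on their median or quantile normalized. The other subunits whose Naa10-KO arrays all lay above the WT arrays were Ndufa3 (0.18), Ndufc2 (0.16), Ndufa12 (0.15), Ndufa7 (0.13) and Ndufa1 (0.07). All of these overlapped once arrays were centred on their median, and Ndufa1 turned to -0.05 with quantile normalization. The 4 further probe sets of Ndufa7 differed by -0.05 to 0.14 and the 3 of Ndufc2 by 0.004 to 0.62, each with overlap.

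Ndufb7 went the other way. It is a twin-cysteine protein on the intermembrane-space side of the membrane arm. Its signal was 13.00, 13.14 and 13.22 on Naa10-KO replicates 1 to 3, against 13.58, 13.53 and 13.40 on WT replicates 1 to 3. Its groups did not overlap, with Naa10-KO lower, at a log2 difference of -0.38 (SE 0.14, 95% interval -0.73 to -0.03, 0.769-fold), which did not pass limma (adjusted p = 0.532). A second Ndufb7 probe set gave -0.43 with values of 11.55 to 11.58 in Naa10-KO and 11.95 to 12.05 in WT, again without overlap.

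Besides Ndufb7, only the low-signal gene Ndufa4l2 had lower values in Naa10-KO without overlap, and the other lower subunit means overlapped between genotypes. Ndufs4, an accessory subunit whose loss in mice causes a disease like Leigh syndrome, was at 12.50, 12.37 and 12.35 on Naa10-KO arrays, against 12.78, 12.62 and 12.31 on WT arrays. Its difference was -0.17, and it turned to 0.07 with the mean of its 4 probe sets. Ndufb3, a small membrane-arm subunit, was at 13.73, 13.69 and 13.82 on Naa10-KO arrays, against 14.06, 13.92 and 13.64 on WT arrays, a difference of -0.13. WT replicate 3 lay below all Naa10-KO arrays in both genes, so their groups overlapped. The remaining subunits, among them Ndufab1, the mitochondrial acyl carrier protein, and Ndufb8, a common marker of the assembled complex on blots, overlapped with differences between -0.13 for Ndufs5 and 0.20 for Ndufc1.

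Ndufa4 and Ndufa4l2 carry Nduf names but stand apart by role. Ndufa4 was first described with complex I and is now placed in cytochrome oxidase, and Ndufa4l2 is its paralogue, known for induction by hypoxia. Ndufa4 was at 14.87, 14.79 and 14.70 on Naa10-KO arrays, against 14.76, 14.64 and 14.69 on WT arrays, so its groups overlapped at a difference of 0.09, which turned to -0.03 with quantile normalization. Ndufa4l2 was at 2.36, 4.34 and 4.68 on Naa10-KO arrays, against 5.72, 5.36 and 6.59 on WT arrays. It had the largest difference of all members, -2.10 (SE 0.71, limma adjusted p = 0.503), without overlap. Only WT replicate 3 of Ndufa4l2 exceeded the median of all probe sets. Raising every lower value to that median left a difference of -0.24.

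Ndufb4 also had a low signal on its single probe set of 1 gene, at 2.87, 3.27 and 4.62 on Naa10-KO arrays, against 3.73, 5.60 and 5.42 on WT arrays. All 6 values fell short of the array-wide median and the groups overlapped, at a difference of -1.33 (SE 0.70, limma adjusted p = 0.605). Ndufb4 is a membrane-arm subunit. Of 2 probe sets shared by Ndufb4 with Ndufb4b and Ndufb4c, looked up after these values were seen, 1 was at 14.47 to 14.53 in Naa10-KO and 14.23 to 14.45 in WT, without overlap. The other was at 13.44 to 13.54 in Naa10-KO and 13.26 to 13.53 in WT, with overlap. Probe sets shared by a member with another gene entered no test.

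All 8 assembly factors had a higher mean in Naa10-KO, by 0.05 to 0.47, and 3 of them (37.5%) did not overlap. Over all genes 51.4% of means were higher and 10.0% did not overlap upward. With array weights 5 of the 8 had a higher mean. Ndufaf4, which acts with Ndufaf3 in the early ubiquinone-reducing module, had the largest positive difference of any member. It was at 10.57, 10.39 and 10.62 on Naa10-KO replicates 1 to 3, against 10.15, 9.84 and 10.19 on WT replicates 1 to 3. Every Naa10-KO array of Ndufaf4 lay above every WT array, at a log2 difference of 0.47 (SE 0.17, 95% interval 0.05 to 0.89, 1.39-fold, limma adjusted p = 0.522), and its second probe set gave 0.30, also without overlap.

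Ndufaf1, a chaperone of the membrane arm, was at 11.20, 10.94 and 11.14 on Naa10-KO arrays, against 10.78, 10.84 and 10.78 on WT arrays, a difference of 0.29 (SE 0.14, limma adjusted p = 0.591). Ndufaf6, needed in human cells for the maturation of a mitochondrially encoded core subunit, was at 9.31, 9.48 and 9.35 on Naa10-KO arrays, against 9.18, 9.13 and 8.98 on WT arrays, a difference of 0.28 (SE 0.14, limma adjusted p = 0.595). Neither Ndufaf1 nor Ndufaf6 overlapped between genotypes, and both have 1 probe set each. Ndufaf8, which in human cells stabilises Ndufaf5, was at 12.29, 12.09 and 12.31 on Naa10-KO arrays, against 12.12, 11.95 and 12.09 on WT arrays, and overlapped by a single pair of arrays at a difference of 0.18. Its second probe set differed by -0.0056, and the mean of both by 0.087.

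The other 4 assembly factors overlapped broadly. Ndufaf3 was at 10.67, 10.18 and 10.39 on Naa10-KO arrays, against 10.39, 10.40 and 10.18 on WT arrays, a difference of 0.09. Ndufaf5, which hydroxylates an arginine of Ndufs7 in human cells, was at 9.10, 9.02 and 9.20 on Naa10-KO arrays, against 9.16, 9.13 and 8.71 on WT arrays, a difference of 0.11, with WT replicate 3 the lowest array. Both genes thus lay within the spread of single arrays. Ndufaf2, a paralogue of the subunit Ndufa12 that leaves before assembly ends, was at 9.69, 9.43 and 9.78 on Naa10-KO arrays, against 9.74, 9.51 and 9.47 on WT arrays, a difference of 0.06. Ndufaf7, a mitochondrial arginine methyltransferase, was at 9.99, 9.70 and 9.59 on Naa10-KO arrays, against 9.74, 9.90 and 9.50 on WT arrays, a difference of 0.05. Differences of Ndufaf2, Ndufaf3, Ndufaf5 and Ndufaf7 each turned negative in some fit with 1 array left out, to -0.02, -0.04, -0.04 and -0.07 at the lowest.

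Complex I assembly also needs proteins without the Nduf prefix, and their means lay on both sides of 0. Of 13 listed, 12 were measured: 6 means were higher and 6 lower in Naa10-KO, with a median of -0.02, and 0 passed limma (2 at an unadjusted p under 0.05, both lower, against 4.35% of all genes). The difference between this list and the Ndufaf genes was not tested. Foxred1, a flavoprotein that helps to build the membrane arm, was at 9.12, 9.21 and 9.23 on Naa10-KO arrays, against 9.45, 9.80 and 9.88 on WT arrays, a difference of -0.52 (SE 0.17, limma adjusted p = 0.501). Acad9, an acyl-CoA dehydrogenase relative that partners Ndufaf1, was at 9.78, 9.98 and 9.93 on Naa10-KO arrays, against 10.51, 10.82 and 10.13 on WT arrays, a difference of -0.59 (SE 0.22, limma adjusted p = 0.531). Tmem126b, a membrane protein of the same assembly complex, differed by -0.39, and none of these 3 genes overlapped between genotypes. Nubpl, which supplies iron-sulfur clusters, and Dmac1 lay the other way, at 0.23 and 0.20, also without overlap. Over all genes, 8.14% did not overlap downward and 10.0% upward. ND5, a proton-pumping core subunit and the only mitochondrially encoded one analysed here, was at 13.33, 13.62 and 13.34 on Naa10-KO arrays, against 13.30, 14.11 and 14.00 on WT arrays, and overlapped at a difference of -0.37.

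Other mitochondrial gene lists also had medians a little above 0. Genes of complexes II and III and ATP synthase (30 measured) had a median difference of 0.06, with 20 means higher in Naa10-KO, 9 genes without overlap upward and 1 downward. Mitochondrial ribosomal proteins (76 measured) had a median of 0.05, with 46 means higher in Naa10-KO, 14 genes without overlap upward and 4 downward. Over all genes 51.4% of means were higher, 10.0% did not overlap upward and 8.14% downward. None of either list passed limma. At an unadjusted p under 0.05 there were 1 gene (3.33%) and 3 genes (3.95%), against 9.2% of all genes. No difference between these lists and complex I was tested.

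**Figure D4:**
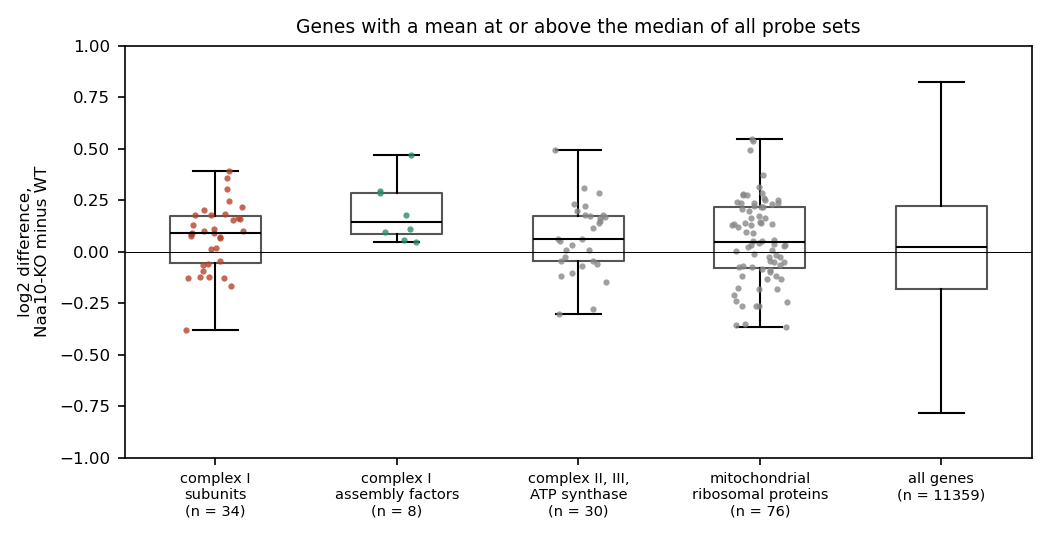
Log2 differences (Naa10-KO minus WT) of genes with a mean at or above the median of all probe sets, for complex I subunits (34), complex I assembly factors (8), complexes II and III with ATP synthase (30), mitochondrial ribosomal proteins (76) and all such genes (11359). Boxes give the quartiles and median, whiskers reach the furthest value within 1.5 times the box, and points, drawn for all but the last group, are genes. The mitochondrial lists sit in a narrower range than all genes and a little above 0.

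A second reading came from other probe sets of the same gene. Of the 44 members, 22 had at least 1 further probe set at or above the median of all probe sets. In 16 of these 22 every such probe set differed in the same direction as the one used for the gene. For the 10 of them whose groups did not overlap on the probe set used, 6 had no overlap in that direction on every further one: Ndufa12, Ndufaf4, Ndufb5, Ndufb7, Ndufs7 and Ndufv2. Ndufa12 kept this only among probe sets that can match several transcripts, and without them its value came from a low probe set and was -0.37. Probe sets of 1 gene read the same RNA on each array and can share target sequence, so they are not independent measurements. How often probe sets concur in this way over all genes was not counted.

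**Figure D5:**
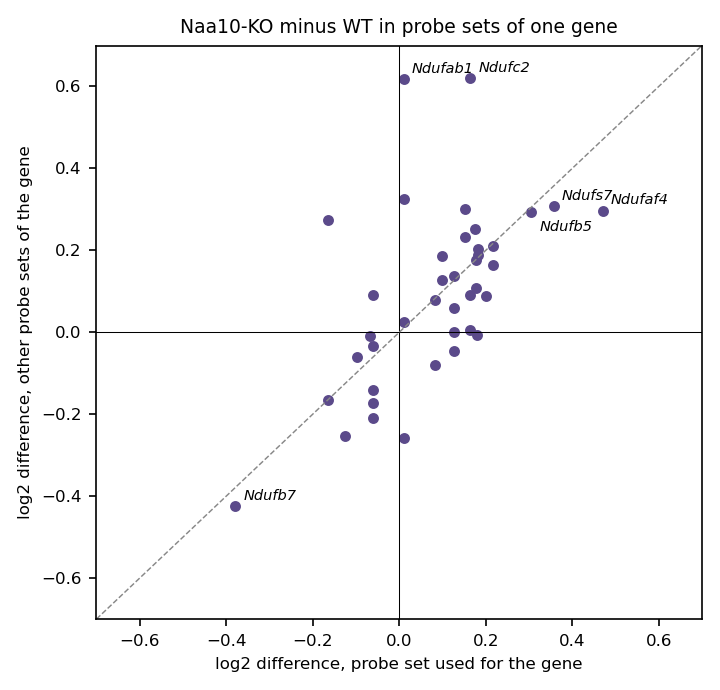
Log2 difference (Naa10-KO minus WT) on the probe set used for each gene, against that on each further probe set of the gene at or above the median of all probe sets, for 22 members. The dashed line marks equal values. Ndufb7 lies at -0.38 and -0.43 and Ndufs7 at 0.36 and 0.31, while single further probe sets of Ndufab1 and Ndufc2 at 0.62 lie far from the values used.

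Promoters of 39 of the 44 members matched RefSeq windows of GRCm38.p6, which run from 250 bases before to 50 bases after the annotated start. They were searched on both strands for a site of NRF1, a transcription factor long tied to respiratory chain genes, spelled GCGCA, any base, GCGC, and for TCAAGGTCA, a site of the oestrogen-related receptors. The NRF1 letters occurred in 7 members (17.9%), namely Ndufa5, Ndufa6, Ndufa8, Ndufaf4, Ndufaf5, Ndufb4 and Ndufs5, against 5.19% of the 27025 genes in the table. Median GC content was 59.7% in the members' windows and 52.7% in all windows, and the part of base composition in these shares was not tested. TCAAGGTCA occurred in 0 of the 39 members and in 0.466% of all genes. Members with the NRF1 letters had differences of both signs, such as 0.47 for Ndufaf4 and -0.13 for Ndufs5. The windows of the member with the largest difference upward, of the highest-differing accessory subunit and of Ndufb7, the main exception, are given below in lower case with NRF1 letters in capitals. That of Ndufaf4 is chr4:24897833-24898132 on the plus strand with a match from 113 to 104 bases before the start, that of Ndufa6 chr15:82354242-82354541 on the minus strand with a match at bases 24 to 33 after it, and that of Ndufb7 chr8:83566508-83566807 on the plus strand with no match.
Ndufaf4: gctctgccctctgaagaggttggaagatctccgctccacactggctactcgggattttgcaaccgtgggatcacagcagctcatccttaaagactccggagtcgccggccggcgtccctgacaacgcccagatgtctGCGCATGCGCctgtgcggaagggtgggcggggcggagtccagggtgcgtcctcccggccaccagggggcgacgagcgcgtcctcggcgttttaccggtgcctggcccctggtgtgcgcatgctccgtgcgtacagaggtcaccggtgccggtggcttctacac
Ndufa6: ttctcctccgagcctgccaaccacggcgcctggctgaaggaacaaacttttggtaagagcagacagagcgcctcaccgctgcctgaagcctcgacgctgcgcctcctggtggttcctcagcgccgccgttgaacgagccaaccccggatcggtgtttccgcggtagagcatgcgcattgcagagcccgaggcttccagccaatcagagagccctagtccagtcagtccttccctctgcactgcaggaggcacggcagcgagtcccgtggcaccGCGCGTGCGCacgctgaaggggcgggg
Ndufb7: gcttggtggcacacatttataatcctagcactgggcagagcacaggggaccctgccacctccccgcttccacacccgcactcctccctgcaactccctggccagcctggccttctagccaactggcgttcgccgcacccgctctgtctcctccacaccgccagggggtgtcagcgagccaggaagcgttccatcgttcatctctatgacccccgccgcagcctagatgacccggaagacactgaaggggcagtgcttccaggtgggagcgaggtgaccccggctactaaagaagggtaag
These letters describe sequence, and no binding was measured. Of the 14 members that did not overlap upward, those holding them were Ndufaf4 and Ndufa6, beside 7 of all 39 matched members (17.9%). Ndufaf6, 1 of the 14, had no window in the table.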

How the data were processed

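RNA from inguinal fat of 3 Naa10-KO and 3 WT mice was hybridised to 1 array each. The values are log2 signals as deposited by the authors, and their array totals show scaling to a common trimmed mean (2% trimmed at each end). The sources used here do not name the software. The number of arrays limits the precision. Of 45101 probe sets, 34945 have 1 annotated gene, 932 several and 9160 none, and 34741 of the first were found in RefSeq. Each gene was represented by the brightest of its probe sets on average over 6 arrays, control probe sets left out. The 2-sided genotype test used lmFit and eBayes (limma 3.58.1, R 4.3.3), with Benjamini-Hochberg adjustment over 18193 genes, after a test on simulated data. Given in full are the core subunits, all assembly factors, Ndufa4 and Ndufa4l2, and the 5 subunits with the largest difference each way. Members and lists were chosen with earlier results of these data known. Same-numbered arrays deviated from their group means with correlations of -0.031 to -0.006, so no pairing by number was seen. With 3 arrays a group, this check cannot exclude a shared litter or batch.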

Additional observations from a re-analysis of the deposited data

How the results depend on the processing

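No member passed limma under any of 15 alternatives, where the lowest adjusted p was 0.166, for both Ndufb7 and Ndufs7 with trend and robust moderation. Of 29 named members, 20 kept their sign wherever they were tested, 18 of them in all 15 alternatives. The subunit median stayed between 0.05 and 0.12 and the assembly factor median between 0.09 and 0.22. Members without overlap, 14 higher and 2 lower in Naa10-KO, became 7 higher with arrays centred on the median and 1 lower with the filter on, or the floor under, low values, and ranged over 14 to 19 higher and 2 to 5 lower with 1 array left out, when 14.3% to 17.1% of all genes did not overlap upward and 11.3% to 14.6% downward. Over all genes, 16 higher and 5 lower calls became 3 lower with quantile normalization, 70 higher with the filter, 104 higher and 13 lower with the floor, 102 higher and 35 lower with trend and robust moderation, and 27 higher with array weights. Calls were 0 higher and 0 lower with the mean of a gene's probe sets (1491 genes at an unadjusted p under 0.05) and with the replicate block (1276 genes), whose numbers showed no pairing of the arrays. With 1 array left out there were 0 to 29 higher and 0 to 1 lower calls. Signs turned with quantile normalization for Ndufa1 (-0.051) and Ndufa4 (-0.029), with the mean of probe sets for Ndufs4 (0.067), without x_at and s_at probe sets for Ndufa12 (-0.37), and with array weights for Ndufaf2 (-0.015), Ndufaf3 (-0.00029) and Ndufaf7 (-0.012). With 1 array left out, differences ranged from -0.016 to 0.16 for Ndufaf2, -0.037 to 0.21 for Ndufaf3, -0.037 to 0.19 for Ndufaf5, -0.066 to 0.14 for Ndufaf7 and -0.12 to 0.24 for Ndufs1. The cause of these changes was not tested. Ndufb4 could not be tested with the filter or the floor, Ndufa4l2 with the filter, or Ndufaf7 without x_at and s_at probe sets. With 3 arrays a group, low-signal genes such as Ndufa4l2 have wide intervals, the labels do not say whether animals were littermates, and the genotype was not checked on Naa10.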
